A study of Mus musculus with 21 samples.

Results

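Knockdown of Hsp90aa1 was compared with knockdown of Hsp90ab1 in mouse normal mammary fibroblasts stimulated with TGFb1. The comparison took every library of these 2 groups by its label, 6 of the 21 libraries of the series, 3 against 3, paired by replicate number, and covered 15230 tested genes of 45706 in the table. NF are fibroblasts of the line NF1 from normal mammary glands of FVB/n mice. The siHsp90aa1 group received an siRNA pool against Hsp90aa1 and the siHsp90ab1 group a pool against Hsp90ab1, both at 100 nM and both with TGFb1 at 5 ng/mL from 5 h after transfection. Further groups used beside them were NF with control siRNA and TGFb1, NF with control siRNA and vehicle, and CAF, fibroblasts of the line CAF1 from MMTV-PyMT mammary carcinomas, with siHsp90aa1, siHsp90ab1 or control siRNA and vehicle. RNA was taken at 48 h, so TGFb1 had acted for 43 h. Each target was hit by 1 pool, so a pool and its target cannot be told apart, and each cell kind is 1 numbered line. No NF library with a knockdown and vehicle was used here, and the labels do not say that replicates are separate cultures or animals, so each p-value reflects spread among the given libraries, which may be technical.

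HSP90 is an ATP-driven chaperone that completes the folding of client proteins, many of them kinases, steroid receptors and transcription factors. Hsp90aa1 encodes the stress-inducible cytosolic form, HSP90 alpha, and Hsp90ab1 the constitutive cytosolic form, HSP90 beta. TGFb1 turns fibroblasts into myofibroblasts, contractile cells that lay down matrix, by way of receptor kinases and SMAD proteins.

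Libraries of the comparison held 36.2 M to 51.8 M estimated counts (in megacounts, M) with siHsp90aa1 and 38 M to 52.9 M with siHsp90ab1, and mitochondrial genes took 2.15% to 2.46% and 1.95% to 2.17% of counts. Markers of fibroblasts summed to between 17600 and 23700 CPM (normalised read counts on TMM-scaled library sizes) with siHsp90aa1 and between 20100 and 22700 with siHsp90ab1. Of these 11 markers Thy1, Lum and Fap were barely read, at most 0.121, 0 and 0.302 CPM with siHsp90aa1. With siHsp90ab1 they reached at most 0.0776, 0.0185 and 0.0925 CPM. Other cell types left few counts: 10 epithelial markers summed to at most 1.22 CPM with siHsp90aa1 and 1.73 with siHsp90ab1 (Krt18 at 0), 8 endothelial markers to 2.74 and 1.76 (Emcn and Cldn5 at 0), 8 immune markers to 7.19 and 8.62 (Cd3e and Lyz2 at 0), 6 pericyte markers to 18.3 and 12.3 (Kcnj8 and Abcc9 at 0), 5 glial markers to 6.14 and 7.44 (Sox10 at 0) and 5 adipocyte markers to 0.68 and 0.179 (Adipoq, Plin1, Cidec and Lep at 0). In bulk RNA, fewer cells of a kind and less RNA per cell cannot be told apart.

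Each pool lowered its own target, and the 2 pools left different amounts of cytosolic HSP90 transcript. Hsp90aa1 (ENSMUSG00000021270, GRCm38 chromosome 12, 110690605 to 110702728, minus strand) was at 31.2, 44.3 and 95.5 TPM (the authors' length-scaled unit) in replicates 1 to 3 with siHsp90aa1. It was at 230, 260 and 246.5 TPM with siHsp90ab1, 625, 500 and 451 with control siRNA and TGFb1, and 686, 566 and 460 with vehicle. The library siHsp90aa1 replicate 3 kept the most Hsp90aa1 of its group, and no library of either knockdown reached a control library, although Hsp90aa1 with siHsp90ab1 against the TGFb1 controls did not pass (log2 -1.04 ± 0.31, adjusted p = 0.059). Hsp90ab1 (ENSMUSG00000023944, chromosome 17, 45567775 to 45573271, minus strand) was at 2487, 2578 and 2361 TPM with siHsp90aa1, against 282, 375 and 539 TPM with siHsp90ab1, and at 2996, 2853 and 2675 TPM in the TGFb1 controls. Summed over both genes, which are compared here per length, siHsp90aa1 left 75.2% of the control level and siHsp90ab1 left 19.1%. The log2 fold change of siHsp90aa1 over siHsp90ab1 was -1.94 ± 0.32 (SE) for Hsp90aa1 (adjusted p = 0.000137) and 2.73 ± 0.21 for Hsp90ab1 (adjusted p = 1.1e-07).

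The other family members are compartment-bound. Trap1, the mitochondrial HSP90, was at 90.5, 96.0 and 82.0 TPM with siHsp90aa1, against 58.5, 69.5 and 58.6 TPM with siHsp90ab1, with no overlap (log2 0.61 ± 0.08, adjusted p = 2.6e-05). In the TGFb1 controls it was at 63.8, 67.5 and 53.3 TPM. Hsp90b1, the endoplasmic reticulum form, did not pass (log2 -0.08 ± 0.11, adjusted p = 0.61).

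**Figure D1:**
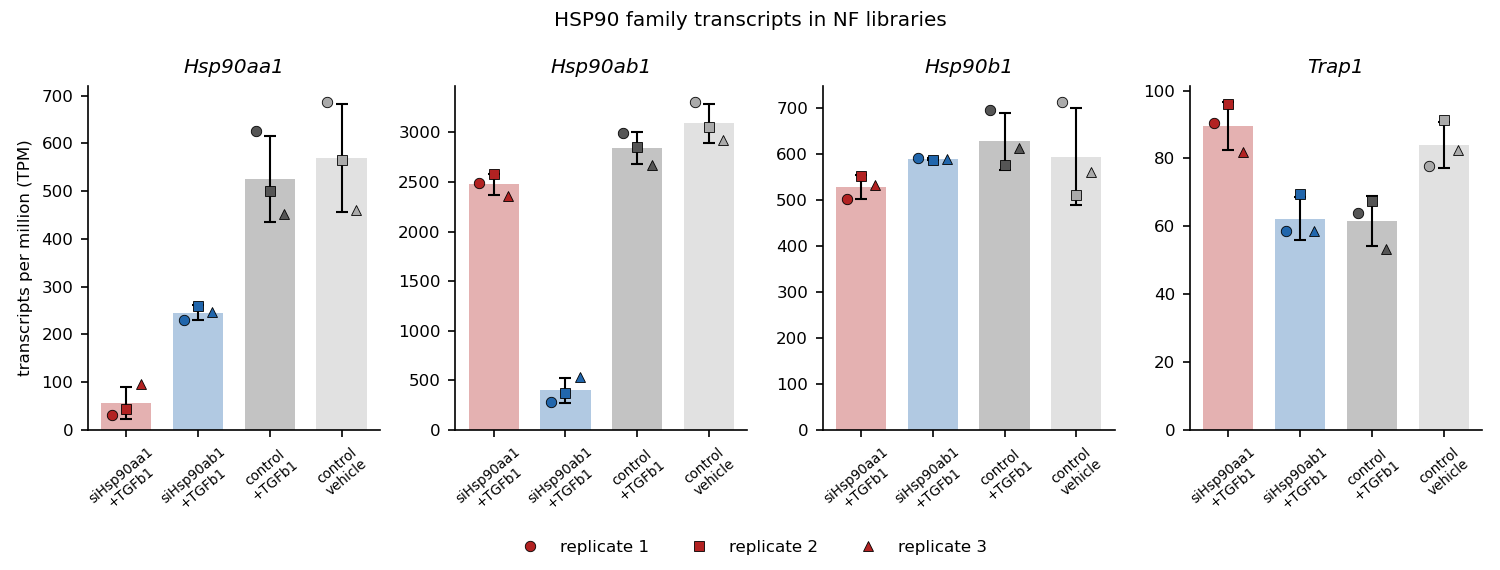
HSP90 family transcripts in TPM (y axis) in the 12 NF libraries. Points are libraries, bars are group means and error bars are SD (n = 3); Hsp90aa1 is lowest with siHsp90aa1 and about 46.7% of control with siHsp90ab1, whereas Hsp90ab1 is low with siHsp90ab1 alone.

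Across all genes, 6420 of 15230 passed an adjusted p under 0.05 (42.2%), 3325 higher (21.8%) and 3095 lower (20.3%) with siHsp90aa1. More than 2-fold, 871 genes rose (5.72%) and 527 fell (3.46%), and libraries did not overlap for 7987 genes (52.4%). The median log2 fold change of all tested genes was 0.01. Against the shared TGFb1 controls, 5681 genes passed with siHsp90aa1 (37.3%; 2947 higher, 19.3%, and 2734 lower, 18%) and 902 with siHsp90ab1 (5.92%; 404 higher, 2.65%, and 498 lower, 3.27%). More than 2-fold, those counts were 645 higher (4.24%) and 366 lower (2.4%) with siHsp90aa1, and 45 higher (0.295%) and 104 lower (0.683%) with siHsp90ab1. Leaving out replicate 2 of every group brought the count between the knockdowns to 3495, and leaving out any 1 of the 6 libraries gave between 4908 and 6292.

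Among genes averaging 5 CPM or more in whichever group was higher, with no overlap of libraries and one sign in all 3 pairs, the 15 largest rises included Ggt5 and several interferon-stimulated genes. Ggt5 (ENSMUSG00000006344, chromosome 10, 75589340 to 75617200, plus strand), which encodes a gamma-glutamyltransferase that acts on leukotriene C4, was at 7.89, 6.86 and 6.69 CPM with siHsp90aa1, against 0.213, 0.255 and 0.352 CPM with siHsp90ab1. It was at 0.2, 0.418 and 0.392 CPM in the TGFb1 controls and 5.00, 5.79 and 9.80 CPM with vehicle, so the siHsp90aa1 libraries lay in the range of the vehicle libraries. Its log2 fold change between the knockdowns was 4.77 ± 0.27 (adjusted p = 1.1e-08). Ly6a, the Sca-1 surface antigen, was at 298, 186 and 168 CPM with siHsp90aa1, against 19.2, 18.3 and 21 CPM with siHsp90ab1 (log2 3.48 ± 0.20, adjusted p = 1.1e-08). The TGFb1 controls, at 25.6, 31.4 and 24.2 CPM, lay above the siHsp90ab1 libraries and far below the siHsp90aa1 libraries.

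The rest of that group had log2 fold changes of 3.28 to 4.14. Among them were Trim30d, Gbp5, Tnfsf10 (the death ligand TRAIL), C4b (complement component), Mx1, Gvin1 and Wisp2 (a CCN-family matricellular protein). Cxcl11, Abi3bp (a matrix protein), Cxcl10, Phf11b, Ifit3 and the clone-named processed pseudogene RP23-100J23.5 (4.14 ± 0.92) completed the group. RP23-100J23.5 was at 9.25, 6.79 and 5.74 CPM with siHsp90aa1, against 0, 1.68 and 0 CPM with siHsp90ab1, so its size of change is uncertain. Near-identical relatives exist for Trim30d, C4b, Gvin1, Phf11b and Ifit3, so counting could split their reads and their single values are uncertain.

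By the same rule, the 15 largest falls included genes of lipid handling, adhesion and growth factor signalling. Acsbg1, an acyl-CoA synthetase, was at 4.29, 4.65 and 5.65 CPM with siHsp90aa1, against 50.6, 41.5 and 40.4 CPM with siHsp90ab1 (log2 -3.16 ± 0.39, adjusted p = 8.8e-06). Alcam, an immunoglobulin-family adhesion molecule, was at 7.73, 5.38 and 4.24 CPM with siHsp90aa1, against 47.9, 28.3 and 22.9 CPM with siHsp90ab1. Pdgfa, a platelet-derived growth factor chain, was at 19.5, 20.5 and 35.3 CPM, against 140, 109 and 112 CPM with siHsp90ab1 (log2 -2.26 ± 0.20, adjusted p = 3.3e-07). The rule that chose these 3 genes required that the libraries of the groups not overlap. Col7a1 (anchoring fibril collagen), Ccbe1, Sema7a, Trim66, Npr3 (natriuretic peptide clearance receptor), Lad1, Tnnt2 (cardiac troponin T), Angptl4, Abcb1a (a drug efflux pump), Ano1 (a chloride channel), Inhba (the activin A subunit) and Parvb (a focal adhesion protein) fell by 2.13 to 2.40 on the log2 scale.

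**Figure D2:**
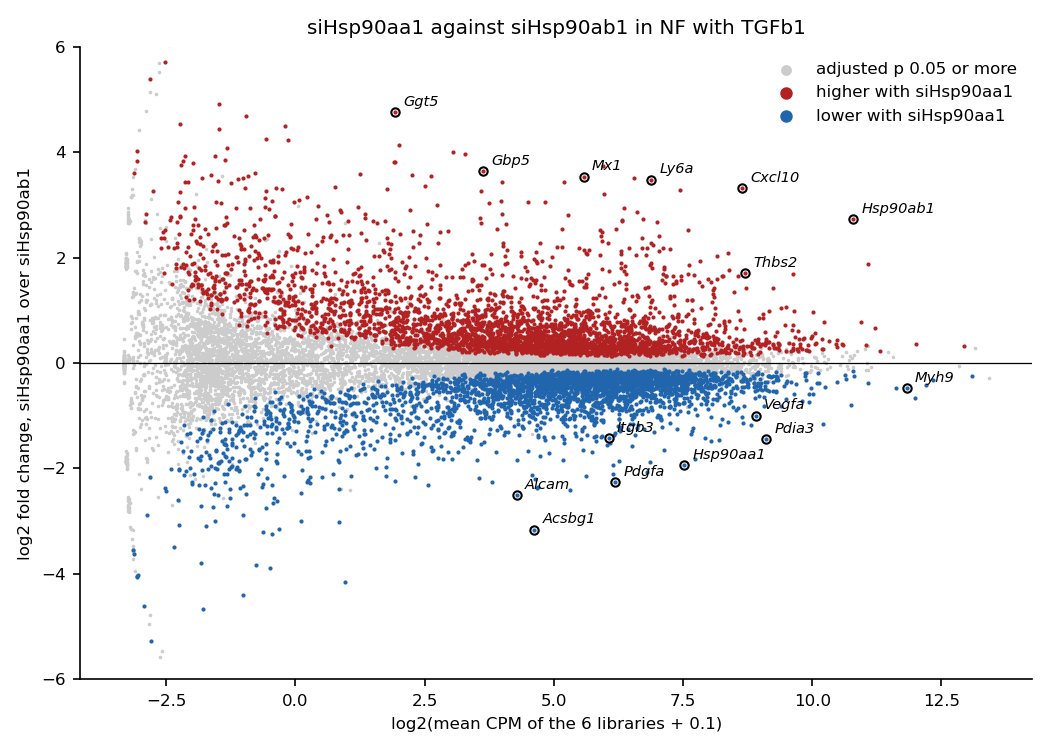
Log2 fold change of siHsp90aa1 over siHsp90ab1 (y axis) against log2 of the mean CPM of the 6 libraries plus 0.1 (x axis), 1 point per tested gene. Red and blue genes passed an adjusted p under 0.05, 3325 higher and 3095 lower; 22 genes lie beyond the y axis, which ends at 6.

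Antiviral interferon-stimulated genes (94.1% higher) and antigen presentation genes (100% higher) formed the most one-sided gene lists. Type I interferons bind a surface receptor whose kinases activate STAT proteins, which with IRF9 bind interferon-stimulated response elements (ISRE). Of the antiviral interferon-stimulated genes, 32 of 34 tested were higher with siHsp90aa1 and 1 was lower, with a median log2 fold change of 2.03. Of genes for antigen presentation and interferon-inducible GTPases, 28 of 28 were higher (median 2.15). Of interferon receptors, STATs and IRFs, 14 of 20 were higher and none was lower (median 0.58). The largest change in that list, log2 4.70, matches that of Ifnb1, an interferon ligand. Over all tested genes the share higher was 21.8%. Leaving out libraries kept the counts of higher genes between 31 and 32, at 28, and between 12 and 14.

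The differences were large at the level of single libraries. Cxcl10 (ENSMUSG00000034855, chromosome 5, 92346638 to 92348889, minus strand), a T cell attracting chemokine, was at 1024, 688 and 484 CPM with siHsp90aa1, against 78.1, 72.4 and 62.1 CPM with siHsp90ab1. In controls it was at 346, 299 and 143 CPM with TGFb1 and 484, 381 and 501 CPM with vehicle, and the TGFb1 controls lay between the knockdowns. Its log2 fold change between the knockdowns was 3.32 ± 0.26 (adjusted p = 1.0e-07). Mx1, an antiviral GTPase, was at 120, 79.5 and 64.9 CPM with siHsp90aa1, against 7.43, 7.19 and 7.51 CPM with siHsp90ab1 (log2 3.54 ± 0.19, adjusted p = 7.0e-09). Its TGFb1 controls held 33.1, 28.2 and 18.9 CPM and its vehicle controls 95.3, 62.2 and 88.8 CPM.

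Ifit3, of a family of interferon-induced antiviral proteins, was at 404, 300 and 246 CPM with siHsp90aa1, against 31.7, 31.2 and 30.9 CPM with siHsp90ab1 (log2 3.28 ± 0.31). Of the regulators, Irf7, the factor that amplifies interferon transcription, was at 264, 203 and 191 CPM with siHsp90aa1, against 31.2, 31.3 and 39.7 CPM with siHsp90ab1 (log2 2.67 ± 0.25, adjusted p = 6.0e-07). The groups did not overlap for Irf7, and for Ifit3 the rule of the largest changes required this. Stat2 (1.86 ± 0.16), Irf5 (2.09 ± 0.26) and Irf9 (0.68 ± 0.10) also rose. The receptor chain Ifnar1 did not pass (-0.02 ± 0.06, adjusted p = 0.79). Ifnb1, interferon beta, was read as 120 counts over the siHsp90aa1 libraries, 4 over the siHsp90ab1 libraries, 22 in the TGFb1 controls and 118 with vehicle (log2 4.70 ± 0.56 between the knockdowns, adjusted p = 7.0e-05).

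Gbp5, a guanylate-binding protein, was at 27.6, 22.6 and 18.2 CPM with siHsp90aa1, against 1.86, 1.58 and 1.92 CPM with siHsp90ab1 (log2 3.64 ± 0.21). Tap1, the peptide transporter of class I antigen presentation, was at 271, 236 and 236 CPM with siHsp90aa1, against 48.1, 56.5 and 64.1 CPM with siHsp90ab1 (log2 2.17 ± 0.19, adjusted p = 2.9e-07). B2m, H2-D1 and H2-K1, the class I chains, rose by 0.97 to 0.99. Members of the Gbp, H2-Q, Oas1, Ifit3 and Tgtp families share near-identical sequence, and the single members of those families are uncertain.

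The 3 lists hold 82 tested genes. The mean was highest with siHsp90aa1 among the 4 NF groups for 66, lowest with siHsp90ab1 for 76, and both for 64. Against the TGFb1 controls that they share, 63 genes were higher and 1 lower with siHsp90aa1, and 0 were higher and 61 lower with siHsp90ab1. TGFb1 against vehicle lowered 40 and raised 3, where it lowered 18.6% and raised 17.8% of all tested genes. The 2 pools differ in sequence, and the part of the pools themselves in these levels was not tested. The summed antiviral list ran from 5988 to 8126 CPM with siHsp90aa1 and from 1992 to 2182 CPM with siHsp90ab1.

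**Figure D3:**
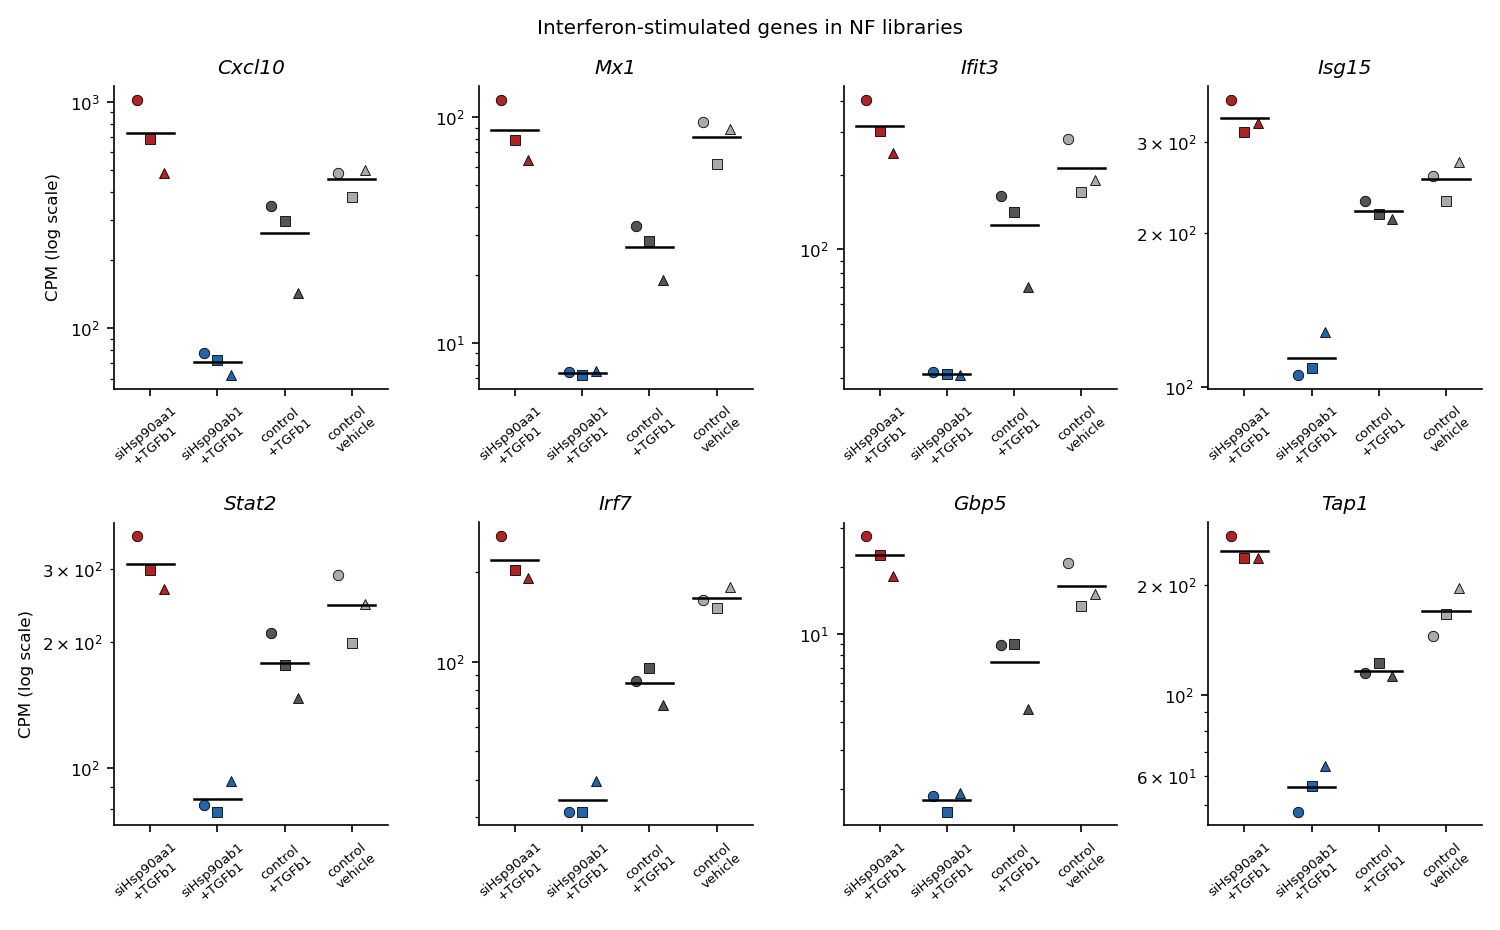
CPM on log axes (y) of 8 interferon-related genes in the 12 NF libraries; points are libraries (circle, square and triangle for replicates 1, 2 and 3) and lines are means of 3. In all 8 panels the siHsp90aa1 libraries lie above the siHsp90ab1 libraries without overlap, for example Tap1 at 236 to 271 against 48.1 to 64.1 CPM. For Cxcl10, Mx1, Ifit3 and Gbp5 the rule of the largest changes required this.

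Promoter sequences (RefSeq, GRCm38.p6; 250 bases before to 50 after the start) are shown for members of the 2 one-sided interferon lists, the 3 antiviral members and the 1 antigen presentation member with the smallest p that hold the ISRE letters GAAA, any 2 bases and GAAA on either strand; capitals mark that match and coordinates are 1-based.
Oas3 (chr5:120777610-120777909, minus strand): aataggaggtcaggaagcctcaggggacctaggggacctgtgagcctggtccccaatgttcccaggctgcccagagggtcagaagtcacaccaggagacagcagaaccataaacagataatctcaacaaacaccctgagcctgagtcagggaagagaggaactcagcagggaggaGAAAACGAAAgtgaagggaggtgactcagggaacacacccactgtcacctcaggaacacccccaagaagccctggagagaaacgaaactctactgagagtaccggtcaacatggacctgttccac
Cxcl10 (chr5:92348840-92349139, minus strand): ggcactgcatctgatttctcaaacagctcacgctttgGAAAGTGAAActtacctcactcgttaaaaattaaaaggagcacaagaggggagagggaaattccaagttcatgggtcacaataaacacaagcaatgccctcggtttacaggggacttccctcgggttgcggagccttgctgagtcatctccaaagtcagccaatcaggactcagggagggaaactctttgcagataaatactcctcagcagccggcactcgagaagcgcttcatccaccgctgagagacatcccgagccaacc
Rsad2 (chr12:26456403-26456702, minus strand): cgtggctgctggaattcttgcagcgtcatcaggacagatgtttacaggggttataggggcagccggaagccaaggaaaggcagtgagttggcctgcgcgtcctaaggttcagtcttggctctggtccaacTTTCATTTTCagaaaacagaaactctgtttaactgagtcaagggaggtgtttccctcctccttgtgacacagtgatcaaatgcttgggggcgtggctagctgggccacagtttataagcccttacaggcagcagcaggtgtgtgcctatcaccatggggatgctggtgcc
Gbp5 (chr3:142496684-142496983, plus strand): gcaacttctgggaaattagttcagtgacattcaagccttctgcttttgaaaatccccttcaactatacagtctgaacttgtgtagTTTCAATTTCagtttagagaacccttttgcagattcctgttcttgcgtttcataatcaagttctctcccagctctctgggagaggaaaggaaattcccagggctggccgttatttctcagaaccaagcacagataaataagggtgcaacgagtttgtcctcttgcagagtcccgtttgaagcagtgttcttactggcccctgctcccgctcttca
The match began 75 bases before the start in Oas3, 213 in Cxcl10, 120 in Rsad2 and 165 in Gbp5. Of the antigen presentation and GTPase list, 23 of 28 genes had a window, and 12 of them (52.2%) held the ISRE letters, against 3.99% of 27025 genes with a window. The STAT element TTCNNNGAA was found in 30.4% of the list and 9.55% of all, and the AP-1 element TGANTCA in 8.7% and 8.97%. The CArG box was found in 0% and 1.81%, and GTCTAGAC, a paired SMAD box, in 0% and 0.248%. An ISRE match overlapped a TTCNNNGAA or TGANTCA match in 24 of 1131 windows. Windows matched 24 of 34 antiviral genes, below 80%, so the same count for that list is void. These matches are descriptions of letters.

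Cytokine and complement genes were more often higher than lower with siHsp90aa1, where 21.8% of all tested genes were higher and 20.3% lower. Of 25 tested cytokines and chemokines 14 rose and 3 fell (median 0.79), and of 19 complement and acute phase genes 12 rose and none fell (median 1.42, or 1.63 with a gene at 0 in one group at its bound). Cxcl12, a chemokine of fibroblasts, was at 105, 113 and 152 CPM with siHsp90aa1, against 23.8, 37.0 and 45.3 CPM with siHsp90ab1 (log2 1.81 ± 0.17, adjusted p = 4.7e-07). Il6 did not pass (-0.07 ± 0.32, adjusted p = 0.89). Ptx3, a soluble pattern recognition protein, was at 167, 192 and 164 CPM with siHsp90aa1, against 25.1, 39.3 and 38.7 CPM with siHsp90ab1 (log2 2.38 ± 0.17). C3, the central complement protein, rose by 1.06 ± 0.22 (adjusted p = 0.00099). C1ra, C1rb and C1s1 rose by 1.75 to 1.90, and reads of C1ra and C1rb may be shared.

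Among pathway components 8 of 29 rose and 13 fell, and among TGFb target genes 1 of 24 rose and 15 fell (median -0.42), where 21.8% of all tested genes rose and 20.3% fell. The components higher, 27.6%, were near the share of all genes. TGFb1 itself raised 23 of the 24 targets and lowered 1 against vehicle, where it raised 17.8% of all genes. Tgfbr1, the type I receptor kinase, was at 11.9, 14.6 and 18.8 CPM with siHsp90aa1, against 43.3, 39.9 and 40.8 CPM with siHsp90ab1 (log2 -1.46 ± 0.12, adjusted p = 2.1e-07). The co-receptor Tgfbr3 was at 357, 327 and 280 CPM, against 95.6, 99.9 and 105 CPM with siHsp90ab1 (log2 1.67 ± 0.11). The ligand transcript Tgfb1 was at 70.6, 78.1 and 115 CPM, against 172, 173 and 204 CPM with siHsp90ab1 (log2 -1.06 ± 0.17). The groups did not overlap for these 3 genes. Of the targets, Ctgf, a matricellular growth factor, was at 41.4, 41.9 and 39.5 CPM with siHsp90aa1, against 218, 193 and 135 CPM with siHsp90ab1 (log2 -2.06 ± 0.48, adjusted p = 0.0024), and Bhlhe40 (-1.14 ± 0.11), Tns1 (-0.89 ± 0.15), Prg4 (-1.37 ± 0.23) and Il11 (-1.13 ± 0.21) also fell. The inhibitor Smad7 fell by 1.12 ± 0.11 and Smad2 by 0.58 ± 0.07. Without replicate 2 of every group, 5 targets and 7 components were lower, and without siHsp90aa1 replicate 1 the components lower numbered 8.

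Members of the contractile, matrix and target lists differed in size of change. Acta2, smooth muscle actin, was at 453, 719 and 887 CPM with siHsp90aa1, against 603, 861 and 915 CPM with siHsp90ab1, and the ranges overlapped (log2 -0.22 ± 0.17, adjusted p = 0.33). Postn (0.11 ± 0.27), Cnn1 (-0.10 ± 0.14) and Col1a2 (-0.05 ± 0.09) did not pass either. Col1a1 was at 6806, 7239 and 10170 CPM with siHsp90aa1, against 8974, 9123 and 10424 CPM with siHsp90ab1 (log2 -0.25 ± 0.09, adjusted p = 0.026), with overlapping libraries. Tagln fell by 0.57 ± 0.19 (adjusted p = 0.022). Contractile genes counted 3 higher (12.5%) and 9 lower (37.5%) of 24, and actin and SRF-linked genes 1 (4%) and 10 (40%) of 25. Matrix genes counted 12 higher (29.3%) and 11 lower (26.8%) of 41. Those matrix shares were near the 21.8% higher and 20.3% lower of all tested genes. Leaving out libraries gave between 5 and 13 lower actin and SRF-linked genes, and between 7 and 13 higher and 4 and 11 lower matrix genes, the lowest lower counts without replicate 2 of every group. Among them Tnnt2 (-2.21 ± 0.25), Smtn (-0.60 ± 0.09), Cnn3 (-0.56 ± 0.09) and non-muscle myosin Myh9 (-0.47 ± 0.11) fell, as did Cotl1, an actin-binding protein, at 100, 122 and 178 CPM with siHsp90aa1, against 344, 330 and 381 CPM with siHsp90ab1 (log2 -1.43 ± 0.11). The contractile counts were 0 higher and 3 lower without replicate 2 of every group, and the lower count was 4 without siHsp90aa1 replicate 1, and 5 without siHsp90aa1 replicate 2, siHsp90ab1 replicate 2 or siHsp90ab1 replicate 3.

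Matrix, adhesion and growth factor genes split by member. Of adhesion genes 10.3% rose and 48.3% fell, and of resting fibroblast genes 44% and 16%. Beside these, 21.8% of all tested genes rose and 20.3% fell. Thbs2, a matricellular thrombospondin, was at 915, 655 and 358 CPM with siHsp90aa1, against 221, 208 and 147 CPM with siHsp90ab1 (log2 1.70 ± 0.20), and Ogn rose by 2.28 ± 0.19 and Adamts5, an aggrecanase, by 1.83 ± 0.18. Col7a1 was at 12.7, 11.2 and 13.9 CPM, against 79.5, 61.0 and 58.6 CPM with siHsp90ab1 (log2 -2.40 ± 0.21). Of 29 integrin and adhesion genes 3 rose and 14 fell, with Itgb3, the beta 3 integrin, at 29.6, 33.7 and 44.8 CPM with siHsp90aa1, against 101, 89.8 and 102 CPM with siHsp90ab1 (log2 -1.43 ± 0.19). The count of lower adhesion genes was 9 without siHsp90aa1 replicate 1 or siHsp90ab1 replicate 3, and 7 without replicate 2 of every group. Among growth factors Figf (VEGF-D, 1.94 ± 0.15) and Fgf10 (1.78 ± 0.16) rose, and Vegfa fell, at 343, 292 and 316 CPM with siHsp90aa1, against 736, 630 and 557 CPM with siHsp90ab1 (adjusted p = 2.1e-06). Of 25 resting fibroblast genes 11 rose and 4 fell (median 0.72), with the receptor Pdgfra at 655, 591 and 596 CPM, against 237, 201 and 247 CPM with siHsp90ab1 (log2 1.43 ± 0.10, adjusted p = 4.1e-08).

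With control siRNA, TGFb1 changed 5542 genes in NF (36.4%), 765 raised (5.02%) and 722 lowered (4.74%) by more than 2-fold. Of the 765 raised genes, 461 (60.3%) were lower and 12 higher with siHsp90aa1 than with siHsp90ab1 (median -0.77). Of the 722 lowered genes, 471 (65.2%) were higher and 9 lower (median 1.18). These sets share no library with the contrast. Of the 871 genes over 2-fold higher, 356 (40.9%) were TGFb1-lowered and 62 were in the interferon lists. Those lists hold 82 of the 15230 tested genes. Of the 527 genes over 2-fold lower, 272 (51.6%) were TGFb1-raised. The share of raised genes that were lower was 39.4% without replicate 2 of every group (272 of 690), 45.5% without siHsp90aa1 replicate 1, 48.3% without siHsp90aa1 replicate 2 and 49% without replicate 1 of every group. The share of lowered genes that were higher was between 55.4% and 65.8% in the fits that left out libraries. Over the 15230 genes the log2 values of the contrast and of the TGFb1 response had a Pearson r of -0.509, a description over genes that are not independent.

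Among the TGFb1-raised genes, Tubb3, a neuronal-type tubulin, was at 24.8, 27.9 and 36.2 CPM with siHsp90aa1, against 110, 111 and 116 CPM with siHsp90ab1 (log2 -1.93 ± 0.15). Jup, plakoglobin, was at 63.6, 59.2 and 66.5 CPM, against 182, 137 and 139 CPM with siHsp90ab1 (log2 -1.26 ± 0.09). Lpin3 (-1.92 ± 0.12), Parvb, Atp6v1g1 (-1.64 ± 0.12), Efna2, Cotl1 and Kctd11 also fell. Among the lowered genes, Sepp1, the selenium transport protein, was at 24.6, 24.4 and 28.6 CPM with siHsp90aa1, against 6.48, 6.02 and 8.79 CPM with siHsp90ab1 (log2 1.89 ± 0.09), and Rasl11a (1.89 ± 0.10), Il1r1, the IL-1 receptor (1.42 ± 0.08), and Nrn1 (1.84 ± 0.11) rose.

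**Figure D4:**
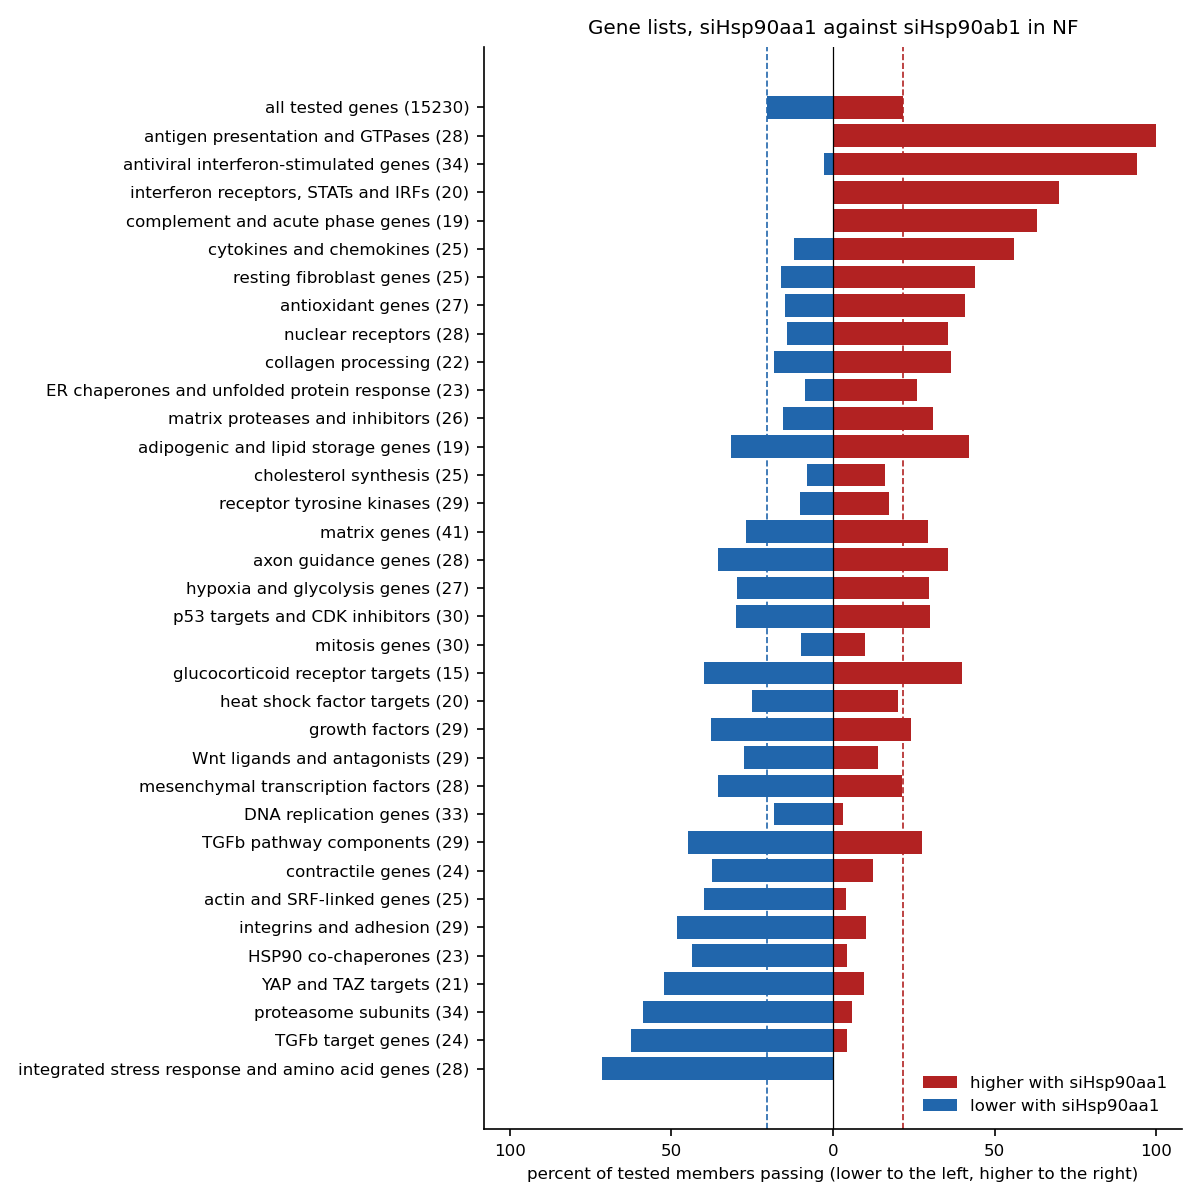
Percent of the tested members of each gene list that passed, lower to the left and higher to the right (number tested in brackets); dashed lines mark the shares of all tested genes, 20.3% lower and 21.8% higher. Antigen presentation (100% higher) and the integrated stress response (71.4% lower) are at the ends.

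Of 28 genes of the integrated stress response and amino acid supply, 20 fell (71.4%) and none rose (median -0.43). Here fell and rose mean siHsp90aa1 against siHsp90ab1. The summed list averaged 5572 CPM with siHsp90aa1, 6193 CPM in the TGFb1 controls and 7337 CPM with siHsp90ab1, so the control mean lay between the knockdowns. Among all tested genes 20.3% fell and 21.8% rose. Atf4, its transcription factor, was at 454, 473 and 553 CPM with siHsp90aa1, against 691, 724 and 714 CPM with siHsp90ab1 (log2 -0.53 ± 0.07, adjusted p = 1.9e-05), and Slc7a1, an arginine transporter, was at 162, 181 and 203 CPM, against 447, 416 and 372 CPM (log2 -1.19 ± 0.09). Of 34 proteasome subunits 20 fell and 2 rose, the interferon-induced activator subunits Psme1 (0.89 ± 0.10) and Psme2 (0.58 ± 0.09). Psmd2, a regulatory particle subunit, was at 171, 195 and 225 CPM, against 429, 408 and 396 CPM with siHsp90ab1 (log2 -1.06 ± 0.09). Co-chaperones counted 1 higher and 10 lower of 23, with the immunophilin Fkbp4 at 233, 258 and 255 CPM, against 403, 455 and 408 CPM with siHsp90ab1 (log2 -0.76 ± 0.07). In the TGFb1 controls Fkbp4 was at 360, 366 and 310 CPM, between the knockdowns. Of YAP and TAZ targets 11 of 21 fell and 2 rose. The lower shares were 58.8% for the proteasome, 43.5% for co-chaperones and 52.4% for YAP and TAZ targets. Pdia3, a disulfide isomerase of the endoplasmic reticulum, was at 202, 282 and 409 CPM, against 795, 799 and 835 CPM with siHsp90ab1 (log2 -1.44 ± 0.19), while its list of endoplasmic reticulum chaperones counted 6 higher and 2 lower of 23. That balance turned without siHsp90aa1 replicate 3, with 5 higher and 7 lower, and the counts were 1 and 1 without replicate 2 of every group and 2 and 2 without siHsp90ab1 replicate 1. Without replicate 2 of every group the lower counts were 12 in the stress response, 12 in the proteasome, 6 in co-chaperones and 5 in YAP and TAZ targets.

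Few cell cycle genes passed in NF. Of 33 DNA replication genes 1 rose (3.03%) and 6 fell (18.2%), and of 30 mitosis genes 3 rose and 3 fell (10% each). Of all tested genes 21.8% rose and 20.3% fell, so the replication genes that fell were near the share of all genes. Pcna, the replication clamp, was at 130, 134 and 121 CPM with siHsp90aa1, against 219, 197 and 183 CPM with siHsp90ab1 (log2 -0.64 ± 0.08, adjusted p = 8.0e-06). Mcm3 (-0.85 ± 0.12) and Birc5, survivin (-0.80 ± 0.12), also fell. The lower count of DNA replication genes was 3 without replicate 2 of every group.

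The same contrast in CAF, without TGFb1, passed for 5412 genes (35.5%; 2783 higher, 18.3%, and 2629 lower, 17.3%; over 2-fold 267 higher, 1.75%, and 390 lower, 2.56%), and cell line and TGFb1 cannot be told apart in the difference. In the same direction in NF and CAF 2976 genes passed (19.5% of tested, 46.4% of the NF genes and 55% of the CAF genes), and 308 passed in opposite directions. Dag1, dystroglycan, was at 246, 237 and 235 CPM with siHsp90aa1 in NF, against 67.5, 71.4 and 90.5 CPM with siHsp90ab1, and at 430, 384 and 392 CPM in CAF, against 147, 130 and 140 CPM with siHsp90ab1. Its log2 fold change was 1.65 ± 0.09 in NF and 1.53 in CAF (adjusted p of the difference 0.58). Parvb, Clcn5 and Tmem18 fell and Rhoj rose in both. Psmd2 (-1.06 in NF and -1.11 in CAF) and Pdia3 (-1.44 and -1.65) fell in both lines, and 19 of 34 proteasome subunits were lower in CAF.

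The difference of the contrast between NF and CAF passed for 2438 genes (16%), 1345 higher in NF (8.83%) and 1093 lower (7.18%), with 457 (3%) and 225 (1.48%) over 2-fold. Without replicate 2 of every group it passed for 415, and without the block for 1358. Ly6e, an interferon-inducible membrane protein, was at 1441, 1134 and 1034 CPM with siHsp90aa1 in NF, against 377, 366 and 366 CPM with siHsp90ab1, and at 282, 219 and 189 CPM in CAF, against 346, 278 and 254 CPM with siHsp90ab1 (difference 2.04 ± 0.12, adjusted p = 1.1e-07). In CAF itself, 11 antiviral genes of 34 were higher and 1 lower with siHsp90aa1 (median 0.68). Of the 20 receptors, STATs and IRFs 11 were higher and 2 lower, and of the 28 antigen presentation genes 6 were higher and none lower. In CAF 18.3% of all tested genes were higher and 17.3% lower, so the antigen presentation genes higher were near the share of all genes. Antiviral genes had 20 of 34 differences higher in NF, and summed to between 381 and 629 CPM with siHsp90aa1 in CAF and between 337 and 456 with siHsp90ab1. Ccl2, a monocyte chemokine, was at 586, 396 and 306 CPM with siHsp90aa1 in NF, against 266, 252 and 206 CPM with siHsp90ab1, and at 37.3, 31.9 and 21.9 CPM in CAF, against 94.4, 71.5 and 68.7 CPM with siHsp90ab1. Jag1, a Notch ligand, was at 27.6, 48.2 and 83.3 CPM in NF, against 163, 179 and 197 CPM with siHsp90ab1, and at 14.6, 21.7 and 32.5 CPM in CAF, against 10.3, 12.3 and 19.6 CPM (difference -2.57 ± 0.23). Ccl7 and Ccl11 moved as Ccl2 did, and Mical1, Cth and Ctsf fell in NF and rose in CAF. In CAF 32 of 33 DNA replication genes and 28 of 30 mitosis genes were lower with siHsp90aa1, and the difference from NF passed for 28 genes of each list. Of the stress response list 14 rose and 1 fell in CAF, and 20 differences were lower in NF. In CAF 6 of 24 TGFb target genes rose, near the 18.3% of all tested genes, and 1 fell. There 10 of 24 contractile genes rose and 2 fell, and 20 of 41 matrix genes rose and 2 fell. For these lists 10, 11 and 13 differences were lower in NF, and 0, 1 and 5 higher.

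**Figure D5:**
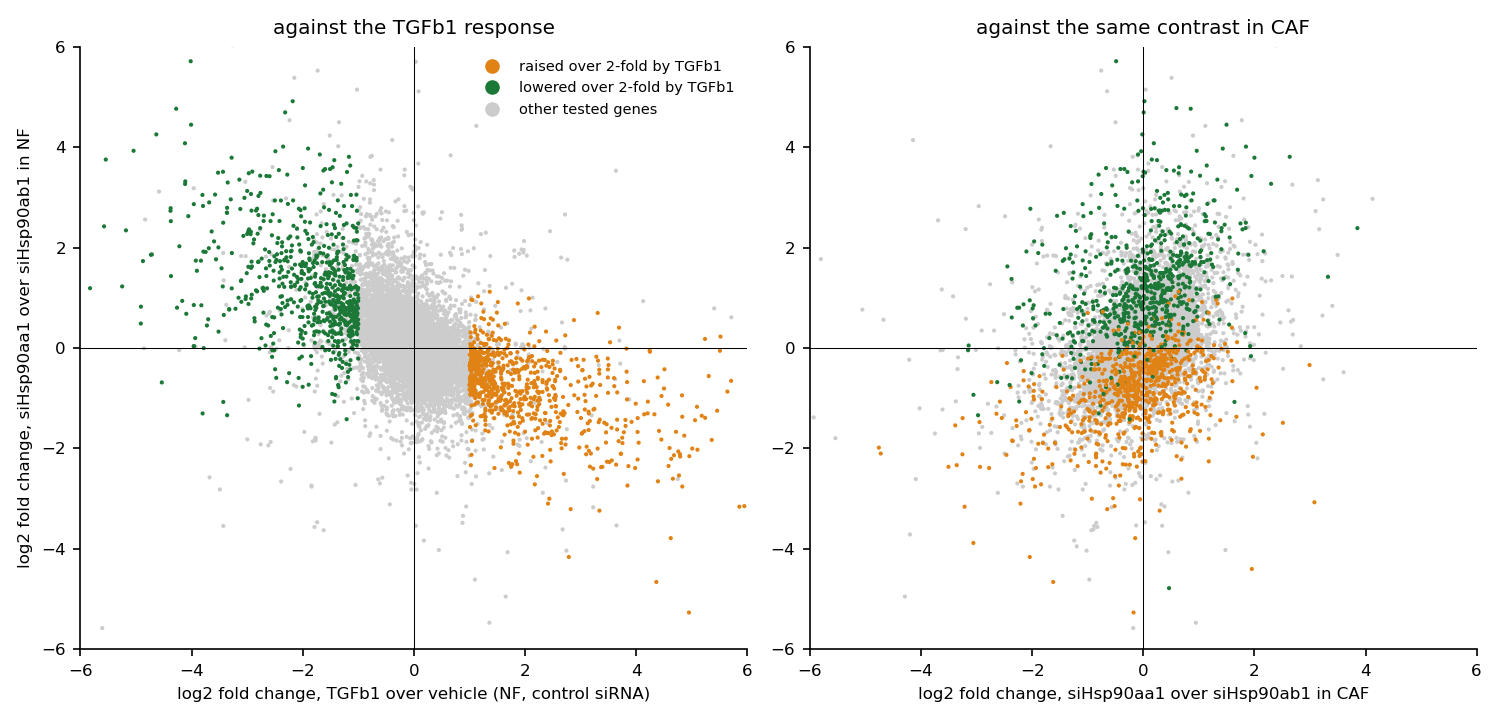
Log2 fold change of siHsp90aa1 over siHsp90ab1 in NF (y axes) against the log2 fold change of TGFb1 over vehicle in NF (left) and against the same contrast in CAF (right), 1 point per tested gene, with axes ending at 6 in each direction. Of the orange genes (raised over 2-fold by TGFb1) 60.3% and of the green genes (lowered) 65.2% passed on the opposite side.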

How the data were processed

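Estimated counts per gene were deposited by the authors from Salmon, with STAR and GRCm38 also named per the submitters' processing notes and no versions given in the sources used here; libraries were stranded mRNA per the labels' protocols. Of the deposited expected counts, 10.9% were not whole; they were rounded here, a shift of at most 0.5. TPM deposited by the authors was used for the HSP90 family. Genes with counts of at least 10 in enough libraries (filterByExpr by group, total at least 15) were tested in edgeR 4.0.16 (R 4.3.3, limma 3.58.1) by quasi-likelihood F tests with TMM factors, 1 coefficient per group and the replicate number as a block, on all 21 libraries (residual degrees of freedom 12), with Benjamini-Hochberg adjustment over 15230 genes. SE is the size of the log2 fold change divided by root F, with a prior count of 0.125. The labels call the replicate number a batch; same-numbered libraries of the contrast had deviations correlated at 0.038 to 0.264, other numbers at a mean of -0.0939. DESeq2 1.42.0 was an alternative, and the fit was tested on simulated data, where the share of false calls came out somewhat above the nominal level, so counts at the threshold may hold more false calls than it states. Replicate pairs differed far beyond counting noise.

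Members, gene lists and the rules for named genes (the HSP90 genes, the 15 largest changes each way with at least 5 CPM, the 4 smallest p of each list, and the first genes of the TGFb1 and CAF comparisons) were chosen with earlier results of these data known. 1 gene is not reported here by name. Genes named beyond the rules were chosen after their values were seen.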

Additional observations from a re-analysis of the deposited data

Results flagged for a closer look

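The siHsp90aa1 against siHsp90ab1 contrast differed between NF with TGFb1 and CAF with vehicle for 2438 genes by the interaction term in edgeR at an adjusted p under 0.05, and line and TGFb1 cannot be told apart in it. Over all tested genes that is 16%, 8.83% higher and 7.18% lower in NF. Of 178 genes named by rule 116 passed, 70 higher and 46 lower, a share that the choice of genes by their NF and CAF changes builds in. For the HSP90 genes, the largest changes and the genes chosen across NF and CAF, the log2 fold change in NF minus that in CAF was positive for Cxcl11 (3.93), Ggt5 (3.92), Tnfsf10 (3.91), Gvin1 (3.79), Ccl11 (3.78), C4b (3.13), Mx1 (2.99), Cxcl10 (2.90), Ly6a (2.85), Wisp2 (2.41), Ccl7 (2.40), Ccl2 (2.17), Ifit3 (2.14), Ly6e (2.04), Abi3bp (2.02), Nrn1 (1.93), Nid1 (1.44), Trap1 (0.47). It was negative for Ctsf (-2.83), Abcb1a (-2.76), Jag1 (-2.57), Npr3 (-2.29), Ano1 (-2.08), Trim66 (-2.08), Cth (-2.03), Angptl4 (-1.83), Col7a1 (-1.74), Pdgfa (-1.53), Mical1 (-1.26), Afap1 (-0.97), Agap1 (-0.84). In CAF, Cxcl11 was read as 4 counts with siHsp90aa1 and 5 with siHsp90ab1 over 3 libraries each, and Tnfsf10 as 10 and 11 (SE of the difference 1.24 and 1.07), so their CAF side is barely measured. Mx1 had 39 and 23 counts and Abcb1a 44 and 25 counts there. Groups of 3 libraries were not examined for single outlying libraries, beyond the fits that left out libraries.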

How the results depend on the processing

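Without the replicate block 5201 genes passed between the knockdowns, 5200 of them with the same direction as in the blocked fit, and the NF minus CAF difference passed for 1358 genes, against 2438 with the block. DESeq2 with the block gave 6588 genes, median-of-ratios factors 6414, no filter 5780, the 12 NF libraries alone 6483 and the 6 libraries alone 7749, where the residual degrees of freedom were 2. Leaving out single libraries or a replicate number gave 3495 to 6292 genes (1860 to 3211 higher, 1635 to 3081 lower; over 2-fold 651 to 977 higher and 344 to 655 lower), 2168 to 5459 in CAF, 415 to 2493 for the difference, 3218 to 5615 for TGFb1, 272 to 488 TGFb1-raised genes lower and 352 to 487 TGFb1-lowered genes higher. The lowest counts came without replicate 2 of every group, apart from both over 2-fold counts, lowest without replicate 1; the cause was not tested. No alternative reversed a named gene, and with replicate 2 left out 11 of 178 named genes no longer passed. Aurka (-0.22, adjusted p = 0.341) and Prc1 (0.26, adjusted p = 0.272) did not pass without the replicate block.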

Other observations

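Gene groups not described above were mixed, where 21.8% of all tested genes were higher and 20.3% lower. Antioxidant genes counted 11 higher and 4 lower of 27, and Gstm2, a glutathione transferase with close relatives, was at 71.0, 67.9 and 67.7 CPM with siHsp90aa1, against 29.6, 36.2 and 39.3 CPM with siHsp90ab1 (log2 0.99 ± 0.10). Nuclear receptors counted 10 higher and 4 lower of 28: the circadian repressors Nr1d1 and Nr1d2 fell by 1.41 and 1.38 on the log2 scale, and Esr1, the estrogen receptor, rose by 1.01. Collagen processing counted 8 higher and 4 lower of 22, matrix proteases and inhibitors 8 and 4 of 26 (7 and 9 without siHsp90aa1 replicate 3), and adipogenic genes 8 and 6 of 19, with the lipid droplet protein Plin2 lower (-0.96 ± 0.08) and the lipase Lpl higher (0.88 ± 0.13).

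Wnt ligands and antagonists counted 4 higher and 8 lower of 29. The antagonist Sfrp2 was at 148, 129 and 136 CPM with siHsp90aa1, against 21.1, 20.4 and 23 CPM with siHsp90ab1 (log2 2.70 ± 0.23, adjusted p = 2.9e-07), and the ligand Wnt5a was at 10.5, 11.3 and 16.1 CPM, against 26.6, 29.2 and 30.5 CPM with siHsp90ab1. Neither gene's groups overlapped. Mesenchymal transcription factors counted 6 higher and 10 lower of 28, axon guidance genes 10 and 10 of 28, p53 targets and CDK inhibitors 9 and 9 of 30, hypoxia and glycolysis genes 8 and 8 of 27, glucocorticoid receptor targets 6 and 6 of 15, receptor tyrosine kinases 5 and 3 of 29, cholesterol synthesis 4 and 2 of 25, heat shock factor targets 4 and 5 of 20, and growth factors 7 and 11 of 29. Leaving out libraries gave between 5 and 12 higher antioxidant genes, 6 and 10 higher nuclear receptors, 4 and 9 higher collagen processing genes, 3 and 10 lower Wnt genes, 4 and 10 lower transcription factors and 6 and 12 lower growth factors. The lowest of each came without replicate 2 of every group, except for the transcription factors, lowest without replicate 1. Against 21.8% higher and 20.3% lower of all tested genes, heat shock factor targets were near, at 20% and 25%. Mesenchymal transcription factors higher, 21.4%, were near too. Receptor tyrosine kinases (17.2% and 10.3%) and cholesterol synthesis (16% and 8%) lay below.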
